A study of Mus musculus with 64 samples.

Results

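The 10 genes described here encode the Abl kinases Abl1 and Abl2, the Src family kinases Src, Yes1 and Fyn, the focal adhesion kinase Ptk2, and the adaptors Bcar1, Crk, Crkl and Shc1. They were chosen by name, as kinases and adaptors tied to Abi1 or to signals of middle T antigen, and make up 10 of the 55385 genes counted. RNA was sequenced from 8 primary mammary tumors of 4 mice that all carry the PyMT transgene, the middle T antigen of polyomavirus, with 2 tumors of 1 mouse for each genotype of floxed Abi1. Mouse G144 was fl/wt without Cre (heterozygous control, tumors 6 and 8) and mouse G164 was fl/wt with Cre (heterozygous KO, tumors 3 and 6). Mouse G184 was fl/fl without Cre (homozygous control, tumors 6 and 9) and mouse G174 was fl/fl with Cre (homozygous KO, tumors 1 and 6). All 4 mice thus carry at least 1 floxed allele and the PyMT transgene, and the Cre recombinase is driven by the MMTV promoter, which is active in mammary epithelium and not in every cell of a tumor. The study records G144 and G174 as younger than G164 and G184. Each KO mouse thus also differs in age from its control, G164 being older than G144 and G174 younger than G184. The controls differ too, G184 being older than G144. Genotype, mouse and age cannot be told apart within these pairs. Because each genotype is 1 mouse, a genotype and its mouse cannot be told apart. The error behind every p-value and interval is that from tumor to tumor within 1 animal.

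Abl and Src family kinases are tyrosine kinases of the cytoplasm that share an SH3 domain, an SH2 domain and a kinase domain. Abi1 was named as a partner of Abl and is also a subunit of the WAVE complex, which starts actin branching. Middle T antigen has no kinase activity of its own: it binds Src, Yes1 or Fyn at the membrane, is phosphorylated by them, and the phosphorylated sites recruit Shc1 and the regulatory subunit of PI3-kinase. Ptk2 and Src phosphorylate Bcar1 at cell adhesions, Crk and Crkl bind the phosphorylated Bcar1 through their SH2 domain, and their SH3 domain then brings in exchange factors for small GTPases. These steps act on proteins and their phosphorylation, and the counts measure only RNA.

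Several of the 10 genes are close paralogs, so the sequence that could mix their reads is shown first. The longest exact run that each of 5 pairs shares in its coding sequence is in capitals, with 15 bases on either side in lower case, read from the transcripts of GENCODE M21 on GRCm38 on the + strand. All of these stretches lie in coding exons. The coordinates are those of the capitals. The Abl pair shares 35 bases in the kinase domain, at chr2:31790274-31790308 in Abl1 (exon 5) and chr1:156631348-156631382 in Abl2 (exon 6), and the lower-case bases before them reach into the preceding exon.
Abl1: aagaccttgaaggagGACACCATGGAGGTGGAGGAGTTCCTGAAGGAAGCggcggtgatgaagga
Abl2: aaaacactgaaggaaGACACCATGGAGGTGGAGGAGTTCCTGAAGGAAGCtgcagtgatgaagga
Yes1 and Fyn share 22 bases in the SH3 domain, over chr5:32645107-32651677 in Yes1 (exons 3 and 4, across an intron) and chr10:39515669-39522774 in Fyn (exons 5 and 6, across an intron).
Yes1: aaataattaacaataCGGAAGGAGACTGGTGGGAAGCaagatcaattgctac
Fyn: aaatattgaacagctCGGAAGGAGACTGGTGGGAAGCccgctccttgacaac
Src and Fyn share 17 bases in the kinase domain, at chr2:157467472-157467488 in Src (exon 10) and chr10:39532057-39532073 in Fyn (exon 10).
Src: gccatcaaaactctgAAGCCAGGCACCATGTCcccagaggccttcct
Fyn: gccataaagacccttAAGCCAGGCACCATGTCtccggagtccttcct
Src and Yes1 share 14 bases in the kinase domain, over chr2:157468552-157469130 in Src (exons 11 and 12, across an intron) and chr5:32659104-32660757 in Yes1 (exons 9 and 10, across an intron).
Src: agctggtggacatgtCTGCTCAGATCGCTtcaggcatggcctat
Yes1: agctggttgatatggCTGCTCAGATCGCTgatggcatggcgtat
Crk and Crkl share 23 bases in the SH3 domain that follows the SH2 domain, at chr11:75692493-75692515 in Crk (exon 2) and chr16:17469092-17469114 in Crkl (exon 2).
Crk: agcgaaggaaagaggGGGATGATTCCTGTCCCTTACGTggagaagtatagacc
Crkl: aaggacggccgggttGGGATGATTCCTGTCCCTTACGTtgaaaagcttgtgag
None of these runs reaches 50 bases. Of all 50-base windows of the transcript used, none was found in another gene for Abl1, Src, Fyn, Ptk2, Bcar1, Crk and Crkl, 1 of 4537 was found for Yes1 and 69 of 10102 (0.683%) for Abl2. For Shc1, 413 of 3201 windows (12.9%) were also found in a processed pseudogene, so part of its RNA could have been left out of the count as mapping to several places, and its level is uncertain to that extent.

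The tumors had 50346075 to 69264893 counts in genes, and the 10 genes had from 1428 counts (Fyn in tumor 9 of G184) to 17008 counts (Crk in tumor 6 of G174) in a tumor. Between the sequencing runs of a tumor their levels differed by a median of 0.03 on the log2 scale and by 0.16 at most. Levels are given as CPM, counts relative to the TMM-scaled library total, and between genes as RPKM, which divides CPM by the length of the union of exons in kb. Abi1 followed the labels, with 111.1 and 130.1 CPM in G144, 63.1 and 66.7 CPM in G164, 113.9 and 122.4 CPM in G184, and 8.93 and 6.47 CPM in G174. Luminal epithelial markers were high in all tumors, at 3250 to 3927 CPM summed over 6 genes. Skeletal muscle markers summed to 208.2 CPM in tumor 8 of G144 and 259.9 CPM in tumor 3 of G164, against 1.01 to 2.16 CPM in the other 6 tumors. Markers were counted as risen or fallen if they passed the edgeR test and threshold given below. Of 7 fibroblast markers 2 rose in heterozygotes and 1 fell in homozygotes. These counts were 1 and 1 for 5 adipocyte markers and 0 and 1 for 5 endothelial markers. For 6 basal and 5 muscle markers they were 0 and 0, which does not show that levels were equal. Summed basal markers were 324.3 to 385.3 CPM in G144 and 723.4 to 839.8 CPM in G164. In G184 they were 286.5 to 918.3 CPM and in G174 121.1 to 314.0 CPM. Of all genes tested, 2.72% passed as higher in heterozygotes and 7.7% as lower in homozygotes. Whether the marker counts exceed these shares was not tested.

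Per length, Crk was the most abundant of the 10 genes, at a mean of 49.1 RPKM over the 8 tumors, followed by Src at 24.9 RPKM. In every tumor Crk stood above Src and Src above the other 8 genes. Shc1 had a mean of 15.6 RPKM, Crkl 13.4 RPKM and Yes1 12.4 RPKM, and the tumors of these neighbours overlapped (14.0 to 17.1, 11.5 to 17.5 and 11.1 to 13.2 RPKM). Ptk2 at 10.6 RPKM, Abl1 at 10.3 RPKM and Abl2 at 8.95 RPKM also overlapped, as did Bcar1 at 7.26 RPKM and Fyn at 7.10 RPKM. The order below Src depends on the length used: divided by the longest transcript, Ptk2 stood at 26.8 RPKM and Shc1 at 27.2 RPKM, close to Src at 27.8 RPKM, while Crk stayed highest at 54.1 RPKM and Fyn lowest at 8.70 RPKM.

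**Figure D1:**
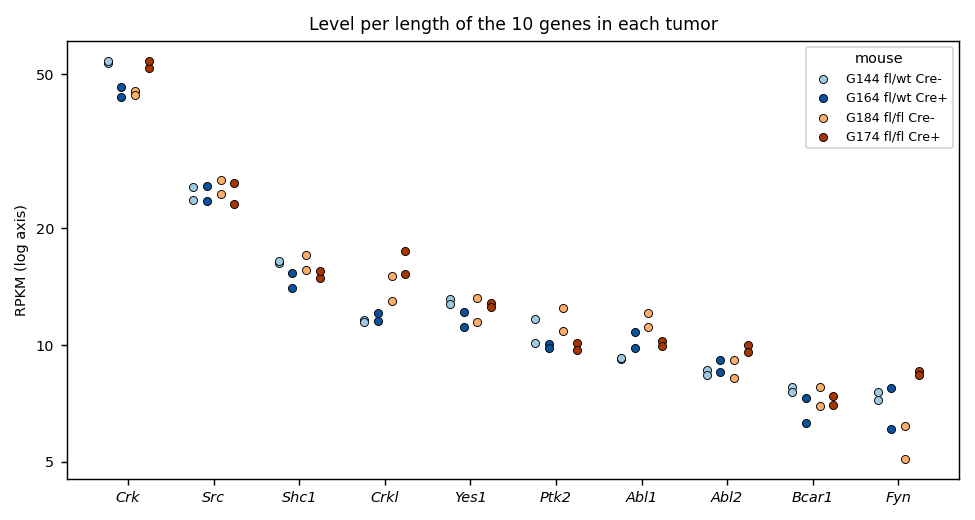
Level of the 10 genes in each of the 8 tumors as RPKM over the union of exons (log axis), with genes ordered by their mean and points coloured by mouse. Crk lies at 43.6 to 54.1 RPKM and Src at 23.0 to 26.6 RPKM, above the other 8 genes in every tumor, and Fyn shows the widest range.

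The 10 genes varied little between tumors. The highest tumor exceeded the lowest by a median of 1.24-fold, from 1.15-fold for Src to 1.68-fold for Fyn, against a median of 1.48-fold for the 8592 genes with at least 20 CPM. Next to Fyn, Crkl varied most (1.53-fold). The fitted coefficient of variation within a mouse was 0.0939 (Crk) to 0.137 (Fyn), against a median of 0.201 over all 22187 genes tested. The 10 genes had means of 31.0 to 232.1 CPM, while the genes tested include some as low as Shc3, with a mean of 0.451 CPM. Comparisons with all genes tested are therefore not matched for level, here and below.

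**Figure D2:**
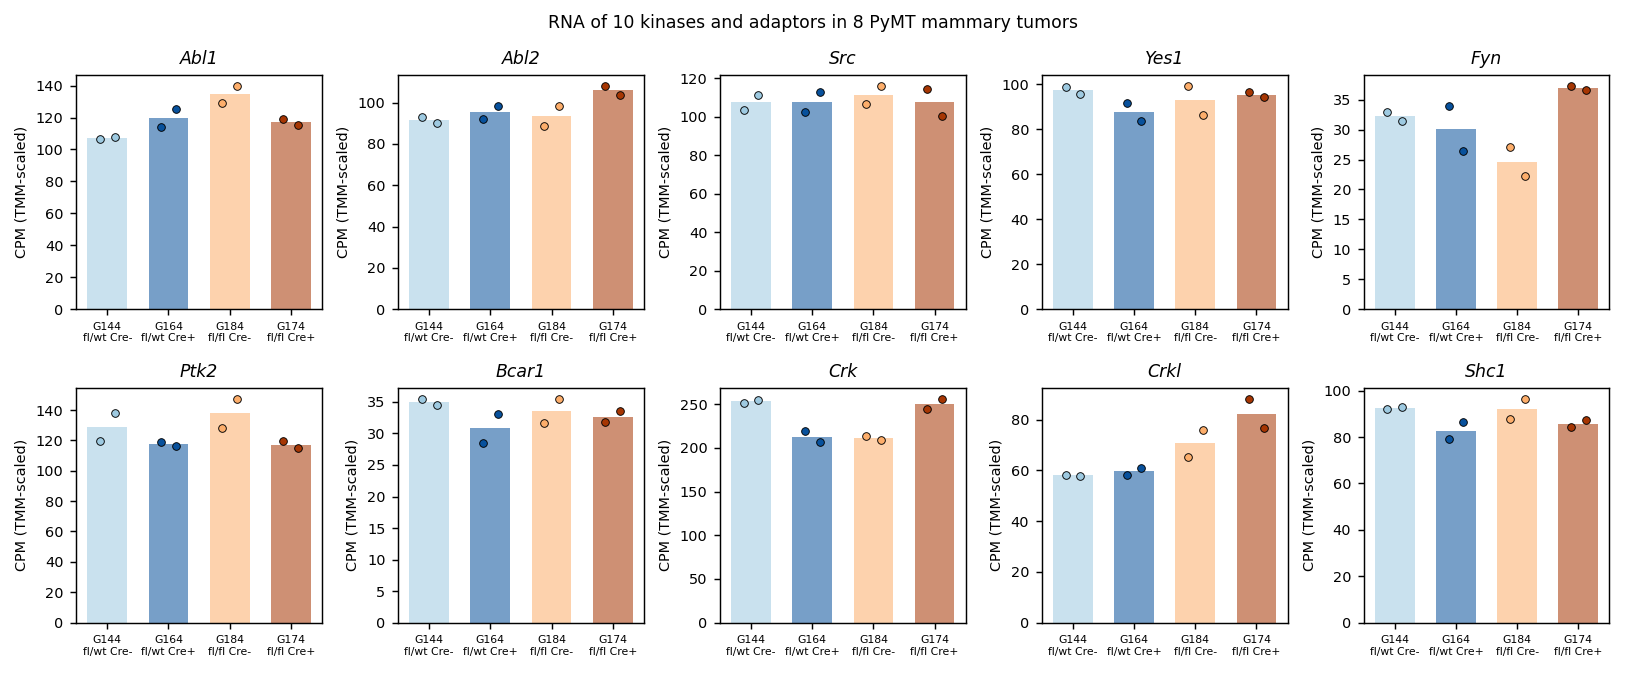
Level of each gene in the 8 tumors as CPM (axes start at 0; bars give the mean per mouse and points its 2 tumors). Fyn is highest in both tumors of G174 (37.3 and 36.6 CPM) and Crk is higher in both tumors of G144 and G174 than in any tumor of G164 and G184.

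In the heterozygous comparison (G164 against G144), none of the 10 genes passed an adjusted p of 0.05 in the quasi-likelihood test of edgeR. In all, 4.01% of the genes tested passed it. Crk alone had an unadjusted p below 0.05, and DESeq2 also called 0 of the 10. The log2 fold changes lay between -0.25 (Crk) and 0.16 (Abl1), with a median size of 0.14 against 0.32 for all genes. All 10 intervals (95%) excluded a 1.5-fold change in either direction, which held for 26.2% of all genes tested, again not matched for level. These intervals hold the spread between tumors of 1 mouse and not that between mice, so they do not bound an effect of genotype.

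In the homozygous comparison (G174 against G184), Fyn rose and the other 9 genes did not pass the test, while 13.1% of all genes tested passed it, 5.44% as higher. The log2 fold changes lay between -0.24 (Ptk2) and 0.59 (Fyn), with a median size of 0.19 against 0.37 for all genes. The intervals of 9 genes excluded a 1.5-fold change and all 10 excluded a 2-fold change, with the same limit as above. The former held for 24.7% of all genes, which are not matched for level. The share of the 10 genes called was thus no larger than the share of all genes called.

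The difference between these changes was called for Crk alone of the 10, against 25.1% of all genes. This difference sets G144 and G174 against G164 and G184, which are also the younger and the older mice, so Abi1 dose and age cannot be told apart in it. The heterozygous, homozygous and control comparisons each also set an older mouse beside a younger one. Between the control mice (G184 against G144), neither of which has Cre, 12.6% of all genes were called and none of the 10 by edgeR, though 4 of them had an unadjusted p below 0.05 and DESeq2 called 2. In Cre-positive against Cre-negative mice, 0.0901% of all genes were called and none of the 10, of which none had an unadjusted p below 0.05. DESeq2 called none of them in that comparison either.

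**Figure D3:**
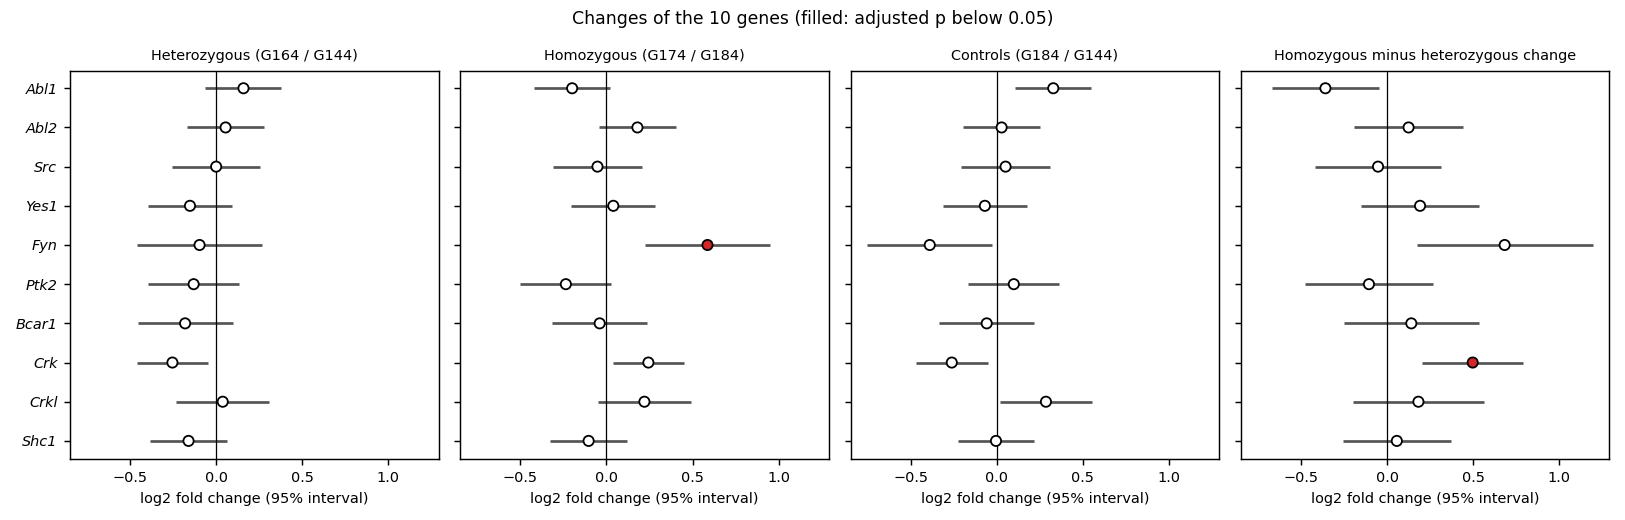
Log2 fold changes of the 10 genes with their 95% intervals from edgeR, in the heterozygous, homozygous and control comparisons and for the difference between the homozygous and the heterozygous change. Filled points passed an adjusted p of 0.05, which are Fyn in homozygotes (0.59) and Crk for the difference (0.50).

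Abl1 (ENSMUSG00000026842.16, chr2:31688376-31804227, + strand), a ubiquitous tyrosine kinase that shuttles between nucleus and cytoplasm, had 106.7 and 107.6 CPM in G144, 114.0 and 125.2 CPM in G164, 129.2 and 139.9 CPM in G184, and 119.1 and 115.3 CPM in G174. The control mice were the extremes, with the homozygous control above all other tumors. The log2 fold change was 0.16 in heterozygotes (SE 0.0935, adjusted p = 0.335) and -0.20 in homozygotes (SE 0.0935, adjusted p = 0.194), and 0.33 between the controls (SE 0.0936, adjusted p = 0.0629), all from edgeR. The last of these was the largest, and it does not involve Cre. An antisense gene, Gm13427, overlaps 94 bases of Abl1 exons, and the counts used are those of the Abl1 strand.

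Abl2 (ENSMUSG00000026596.13, chr1:156558786-156649568, + strand), the second Abl kinase, which binds actin filaments through its long C terminus, had 93.2 and 90.4 CPM in G144, 92.1 and 98.6 CPM in G164, 88.7 and 98.6 CPM in G184, and 108.2 and 103.9 CPM in G174. Both homozygous KO tumors lay above all others. The change was 0.18 on the log2 scale in homozygotes (95% interval -0.04 to 0.40, edgeR adjusted p = 0.239) and 0.05 in heterozygotes (adjusted p = 0.757). By level per length, Abl1 made up 53.5% of the Abl RNA on average, from 50.6% in tumor 1 of G174 to 57.6% in tumor 6 of G184. With the longest transcript as length it was 66.4%.

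Src (ENSMUSG00000027646.15, chr2:157418444-157471862, + strand), the kinase that middle T antigen was first known to bind, was the flattest of the 10 genes. It had 103.7 and 111.6 CPM in G144, 102.7 and 112.7 CPM in G164, 106.9 and 116.2 CPM in G184, and 114.6 and 100.7 CPM in G174, and the tumors of all 4 mice overlapped. The log2 fold change was 5.2e-05 in heterozygotes (95% interval -0.26 to 0.26) and -0.05 in homozygotes (95% interval -0.31 to 0.21), with edgeR adjusted p-values of 1.00 and 0.775.

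Yes1 (ENSMUSG00000014932.15, chr5:32611171-32687057, + strand), a ubiquitous kinase close to Src, had 98.9 and 95.6 CPM in G144, 91.6 and 83.5 CPM in G164, 99.3 and 86.2 CPM in G184, and 96.4 and 94.3 CPM in G174. Both heterozygous KO tumors lay below their controls, while the homozygous groups overlapped. The changes were -0.15 in heterozygotes (95% interval -0.40 to 0.09) and 0.04 in homozygotes (95% interval -0.20 to 0.28), and neither passed the test of edgeR (adjusted p = 0.402 and 0.821). A gene on the other strand, Gm10461, overlaps 635 bases of Yes1 exons, and unstranded counts were 95.7% of those on the Yes1 strand, since reads in the overlap are then ambiguous.

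Fyn (ENSMUSG00000019843.14, chr10:39368855-39565381, + strand), which is also prominent in T cells and brain, had 33.0 and 31.5 CPM in G144, 33.9 and 26.4 CPM in G164, 27.0 and 22.2 CPM in G184, and 37.3 and 36.6 CPM in G174. The homozygous KO tumors were the highest of all 8 and the homozygous control tumor 9 was the lowest, while the heterozygous groups overlapped. Fyn rose by 0.59 on the log2 scale in homozygotes (SE 0.153, 95% interval 0.22 to 0.95, edgeR adjusted p = 0.0491). In heterozygotes its change was -0.10 (SE 0.153, adjusted p = 0.732). The difference between these changes, 0.68, had an adjusted p of 0.0578, so that a different response in the 2 genotypes was not shown. The homozygous control itself stood 0.39 below the heterozygous control on the log2 scale (adjusted p = 0.136).

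The call of Fyn lies at the threshold. It was lost when any of the 8 tumors was left out (edgeR adjusted p = 0.0534 to 0.226), with log2 fold changes of 0.46 without tumor 9 of G184 to 0.76 without tumor 6 of G184. It was also lost with scaling by library size alone (adjusted p = 0.0703), with the second run alone (0.0550) and in a fit of G174 and G184 only (0.0878), and the direction was the same in each. It was kept by DESeq2 (0.59, adjusted p = 0.00978), and by edgeR with no filter on low counts (adjusted p = 0.0192), with DESeq2 size factors (0.0484), with unstranded counts (0.0436) and with the first run alone (0.0419).

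Fyn RNA can come from T cells as well as from epithelium, and in bulk tumors fewer cells of a type and less RNA per cell cannot be told apart. In homozygotes, where Fyn rose, all 8 T cell markers fell, with summed levels of 17.7 to 20.2 CPM in G184 and 3.28 to 5.25 CPM in G174. In heterozygotes, where Fyn did not pass the test, 4 of the 8 rose, with 6.86 to 6.92 CPM in G144 and 18.1 to 22.8 CPM in G164. Between the controls, neither of which has Cre, 5 of the 8 were called higher in G184 than in G144, beside 6.17% of all genes tested. None of the 8 was at 0. Among all genes tested, 7.7% passed as lower and 5.44% as higher in homozygotes, and 2.72% as higher in heterozygotes. The 6 luminal markers summed to 3358 to 3554 CPM in G184 and 3832 to 3903 CPM in G174, and 1 of 6 rose. Their part in the result was not tested.

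Among the 3 kinases that bind middle T antigen, Src made up 56.1% of the summed level per length, Yes1 28.0% and Fyn 15.97%. The Fyn share ran from 11.8% in tumor 9 of G184 to 19.1% in tumor 6 of G174, and its mean was 16.4% in G144, 15.98% in G164, 13.0% in G184 and 18.5% in G174. The order Src, Yes1, Fyn was the same in all 8 tumors. With the longest transcript as length the shares were 49.0%, 35.7% and 15.3%.

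**Figure D4:**
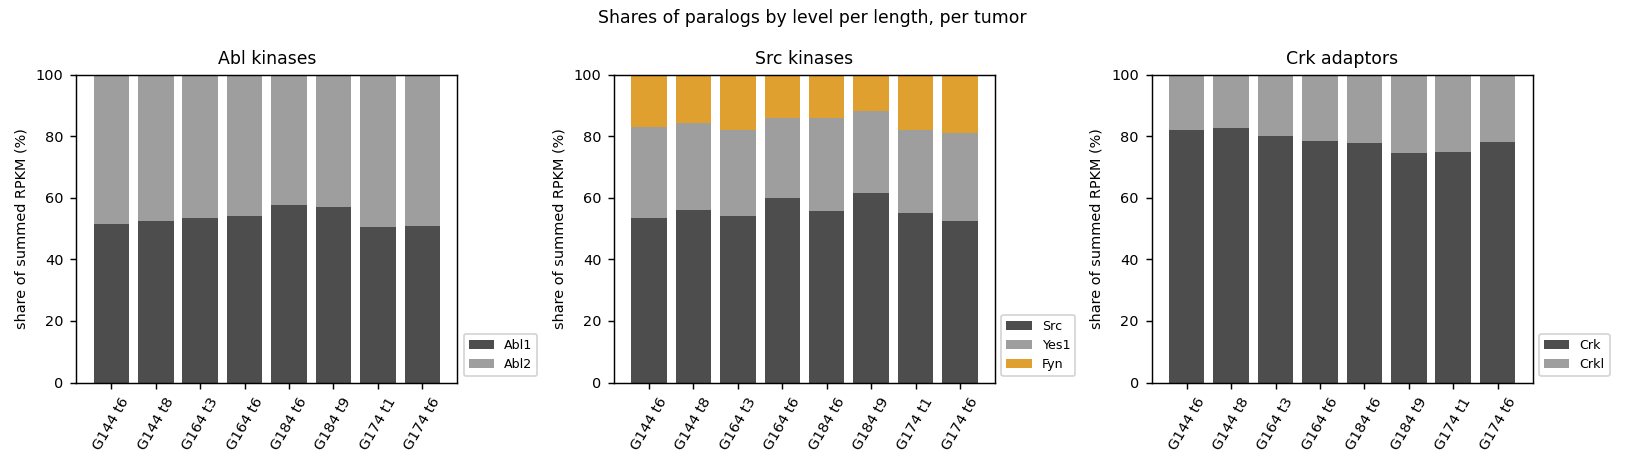
Share of each paralog in the summed RPKM of its family (percent, union of exons), in each of the 8 tumors (mouse and tumor number) for the Abl kinases, for Src, Yes1 and Fyn, and for the Crk adaptors. Abl1 holds 50.6% to 57.6%, Fyn 11.8% to 19.1% and Crk 74.6% to 82.5%.

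Ptk2 (ENSMUSG00000022607.18, chr15:73205102-73423280, - strand), the focal adhesion kinase, which binds Src once integrins engage, had 119.4 and 137.9 CPM in G144, 119.0 and 116.1 CPM in G164, 128.4 and 147.3 CPM in G184, and 119.4 and 114.7 CPM in G174. Both KO groups lay below their controls, in heterozygotes with the nearest tumors almost level. The log2 fold changes were -0.13 in heterozygotes (95% interval -0.40 to 0.13) and -0.24 in homozygotes (95% interval -0.50 to 0.03), and neither passed the test of edgeR (adjusted p = 0.508 and 0.199).

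Bcar1 (ENSMUSG00000031955.10, chr8:111710474-111743809, - strand), the scaffold also called p130Cas whose substrate domain is phosphorylated by Src, was low, with 35.5 and 34.5 CPM in G144, 28.5 and 33.2 CPM in G164, 31.7 and 35.4 CPM in G184, and 31.8 and 33.5 CPM in G174. The heterozygous KO tumors lay below their controls and the homozygous groups overlapped. The changes of -0.18 and -0.04 on the log2 scale did not pass the test of edgeR (adjusted p = 0.379 and 0.845).

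Crk (ENSMUSG00000017776.15, chr11:75679259-75706908, + strand), which couples phosphorylated Bcar1 and paxillin to exchange factors for Rac and Rap1, had 251.8 and 255.5 CPM in G144, 219.0 and 206.4 CPM in G164, 213.9 and 209.4 CPM in G184, and 245.1 and 256.1 CPM in G174. The 4 tumors of G144 and G174 lay at 245.1 to 256.1 CPM and the 4 of G164 and G184 at 206.4 to 219.0 CPM, with no overlap, as for 26.5% of all genes tested. Neither the heterozygous change (-0.25, SE 0.0881, edgeR adjusted p = 0.137) nor the homozygous change (0.24, SE 0.0881, adjusted p = 0.111) passed the test, and their difference of 0.50 did (SE 0.125, 95% interval 0.20 to 0.79, adjusted p = 0.0293). The controls differed by -0.26 (adjusted p = 0.0954), about as much as either KO mouse from its control. The summed luminal markers were also higher in G144 and G174 (3686 to 3927 CPM) than in G164 and G184 (3250 to 3554 CPM), with 1 of 6 called higher for the difference. Markers of other cells were lower for the difference, with 8 of 8 T cell markers called (median -4.14 on the log2 scale), 5 of 5 B cell markers (-7.84), 5 of 5 adipocyte markers (-4.09), 6 of 8 myeloid markers (-1.81), 2 of 7 fibroblast markers (-1.03), 1 of 6 basal markers (-2.81) and 1 of 5 endothelial markers (-0.64). Among all genes tested, 12% passed as higher and 13.1% as lower for the difference. The part of these cell types in the Crk result was not tested.

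The difference for Crk was lost when 6 of the 8 tumors were left out in turn (edgeR adjusted p = 0.0407 to 0.124 over the 8), and held without either tumor of G174. Without the muscle-rich tumors 8 of G144 and 3 of G164, each in turn, it was 0.49 and 0.57 (adjusted p = 0.0677 and 0.0689). It was lost with scaling by library size alone (0.40, adjusted p = 0.0674) and without the filter on low counts (0.50, adjusted p = 0.0666).

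Crkl (ENSMUSG00000006134.4, chr16:17451987-17487434, + strand), the paralog of Crk and a major substrate of Abl kinases, had 58.4 and 57.7 CPM in G144, 58.2 and 61.0 CPM in G164, 65.4 and 76.1 CPM in G184, and 88.2 and 76.7 CPM in G174. The tumors of the fl/fl mice G184 and G174 all lay above those of the fl/wt mice G144 and G164. This split was not tested, and the share of all genes that separate in this way was not counted. The change was 0.22 in homozygotes (95% interval -0.05 to 0.49, edgeR adjusted p = 0.230) and 0.29 between the controls (95% interval 0.02 to 0.55, adjusted p = 0.139), so neither passed. Crk made up 78.5% of the pair by level per length, from 74.6% in tumor 9 of G184 to 82.5% in tumor 8 of G144.

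Shc1 (ENSMUSG00000042626.13, chr3:89418443-89430027, + strand), the adaptor that binds middle T antigen and passes its signal to Grb2, Sos and Ras, had 92.1 and 92.8 CPM in G144, 79.0 and 86.4 CPM in G164, 87.9 and 96.4 CPM in G184, and 84.2 and 87.4 CPM in G174. In both comparisons the KO tumors lay below their controls. The changes were small, -0.16 in heterozygotes (95% interval -0.38 to 0.06) and -0.10 in homozygotes (95% interval -0.33 to 0.12), and did not pass the test of edgeR (adjusted p = 0.333 and 0.487).

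In heterozygotes the tumors of KO and control did not overlap for 6 of the 10 genes, 1 higher and 5 lower, and in homozygotes for 7, of which 4 were higher and 3 lower. With 2 tumors on either side this held for 60.1% and 59.8% of all genes tested, so the counts are near the background. Between the controls it held for 4 of the 10 and for 61.4% of all genes. As a description over 8 tumors that share mice, the log2 levels of Bcar1 and Shc1 (Pearson r = 0.929), of Abl2 and Crkl (0.829) and of Fyn and Crk (0.766) went together most closely, and Abl1 ran opposite to Crk (-0.787) and Fyn (-0.771).

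The genes with the most similar pattern were sought among 11454 protein-coding genes of at least 5 CPM, by Pearson r of log2 CPM over the 8 tumors. For Fyn they were Ttc19 (r = 0.976), Exoc4 (0.973) and Usp16 (0.972). For Crk they included Pfdn1 and Ube2b (each 0.989). These values describe tumors from 4 mice and are the highest of many.

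The other kinases of the Src family and its relatives included genes with larger changes than Src, Yes1 or Fyn. Of 7 genes tested, 1 passed as higher in heterozygotes and 3 as lower in homozygotes, beside 2.72% and 7.7% of all genes tested. Over the 7 genes, the median log2 fold changes were 0.87 and -0.90 (0.015 and -0.0012 over all genes tested). The genes of this list that passed are best known from blood cells, and bulk counts do not show which cells their RNA came from. Fgr, a kinase of myeloid cells, had 2.47 and 2.99 CPM in G144, 5.98 and 7.38 CPM in G164, 9.75 and 8.64 CPM in G184, and 2.56 and 3.22 CPM in G174. It rose by 1.29 on the log2 scale in heterozygotes (edgeR adjusted p = 0.0328) and fell by 1.67 in homozygotes (adjusted p = 0.00756). The controls, neither of which has Cre, differed by 1.75, with G184 above G144 (adjusted p = 0.00692). Of the 7 genes, 2 passed as higher between the controls, beside 6.17% of all genes tested.

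Lyn, a kinase of B cells and myeloid cells, and Lck, a kinase of T cells, fell in homozygotes, with log2 fold changes of -0.90 and -1.11 (edgeR adjusted p = 0.0297 and 0.0237). In heterozygotes the values were 0.87 and 0.74 (adjusted p = 0.0559 and 0.101). For the controls (G184 against G144) they were 1.055 and 0.71 (edgeR adjusted p = 0.0201 and 0.0752). Lyn reached 17.2 RPKM on average, between Src and Yes1, and Frk, an epithelial relative, 13.8 RPKM with no call. Myeloid markers moved in the same direction as these kinases. In heterozygotes 1 of 8 rose (373.9 to 469.7 CPM in G144, 585.5 to 679.8 CPM in G164), beside 2.72% of all genes. In homozygotes 4 of 8 fell (707.5 to 923.2 CPM in G184, 449.6 to 522.6 CPM in G174), beside 7.7% of all genes. Between the controls 6 of 8 were called higher in G184 than in G144, beside 6.17% of all genes. B cell markers summed to 0.62 to 0.90 CPM in G144, 4.36 to 35.1 CPM in G164, 2.94 to 3.54 CPM in G184 and 0.27 to 0.66 CPM in G174. The part of these cells in the kinase values was not tested.

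Among the paralogs of Ptk2 and of the adaptors, some also changed. Of 7, 2 were called higher in heterozygotes and 4 lower in homozygotes, beside 2.72% and 7.7% of all genes tested. Nedd9, the relative of Bcar1 best known from lymphoid cells and tumor invasion, rose by 0.66 (edgeR adjusted p = 0.0394) and fell by 0.95 on the log2 scale (adjusted p = 0.00761), and with a mean of 197.4 CPM had more reads than Bcar1 at 33.0 CPM. Ptk2b, the calcium-responsive relative of Ptk2, rose by 1.02 (adjusted p = 0.0469) and fell by 0.95 (adjusted p = 0.0296). Cass4 and Shc3, both under 1 CPM on average, fell in homozygotes (log2 fold changes of -2.25 and -1.98, edgeR adjusted p = 0.00770 and 0.0493). Of the 7, 3 were also called higher between the controls (G184 against G144), neither of which has Cre, beside 6.17% of all genes tested. They were Nedd9 (0.98), Ptk2b (1.33) and Cass4 (1.78), with edgeR adjusted p = 0.00733, 0.0131 and 0.0145.

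**Figure D5:**
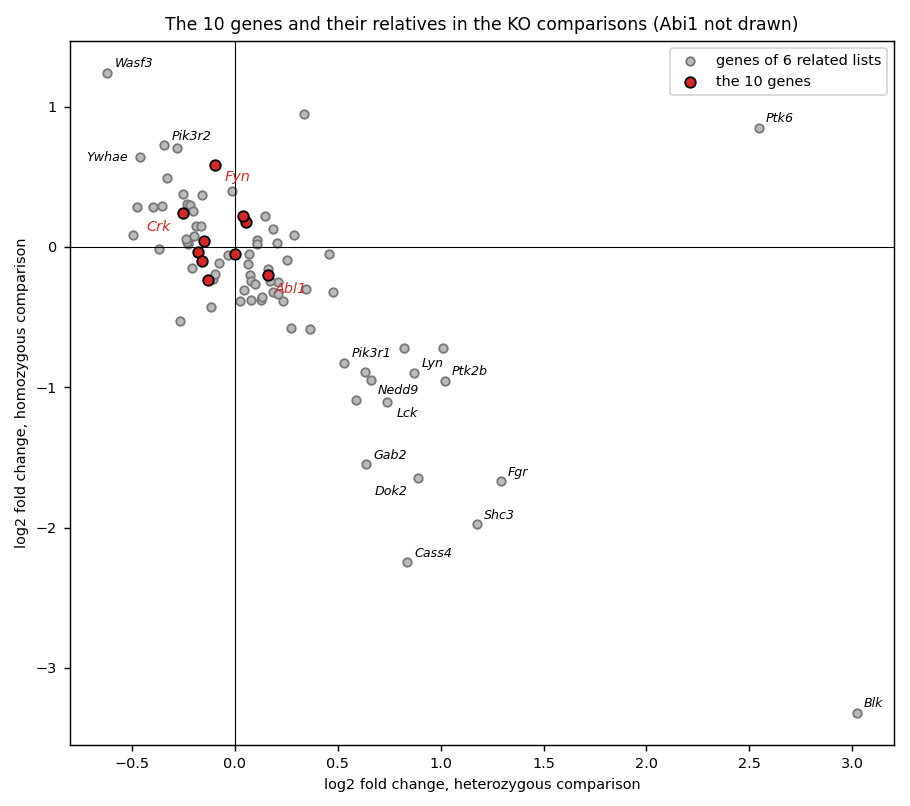
Log2 fold change in the heterozygous (horizontal) and the homozygous comparison (vertical) for the 10 genes (red) and for the genes of 6 lists of relatives, regulators and partners (grey; Abi1 is left out for scale). The 10 genes lie near the origin, and Fgr, Nedd9 and Ptk2b lie to the lower right.

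The regulators and partners gave the following counts, beside 4.01% of all genes called in heterozygotes and 13.1% in homozygotes. Of 11 regulators of Src family kinases, such as Csk, which phosphorylates their inhibitory tail, 0 passed in heterozygotes and 1 fell in homozygotes, the phosphatase Ptpn18 (-0.38, edgeR adjusted p = 0.0435). Of 15 genes of the Ras and Rac branch, 0 passed in heterozygotes. In homozygotes Grb2, the adaptor between Shc1 and Sos, rose by 0.38 (adjusted p = 0.0395), and the scaffold Gab2 and the exchange factor Sos2 fell (-1.55 and -0.58, adjusted p = 0.0108 and 0.0221). For the controls (G184 against G144), 1 of the 11 regulators and 2 of the 15 were called higher, beside 6.17% of all genes. The 2 were Gab2 (0.89) and Sos2 (0.48), with edgeR adjusted p = 0.049 and 0.0375.

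Of 17 other partners of middle T antigen, 0 passed in heterozygotes and 3 in homozygotes. The PI3-kinase subunit Pik3r2 rose by 0.72 (edgeR adjusted p = 0.0421) and its paralog Pik3r1 fell (-0.82, adjusted p = 0.0367). Ywhae, a phosphoserine-binding adaptor, rose by 0.64 (adjusted p = 0.0132). The controls (G184 against G144) also differed in Pik3r1 (0.96, edgeR adjusted p = 0.0250) and in Ywhae (-0.53, adjusted p = 0.0226). These were the 1 higher and 1 lower of the 17 called there, beside 6.17% and 6.4% of all genes. Of 19 partners and substrates of Abl kinases, Abi1 fell in both comparisons and Dok2, an adaptor of blood cells, fell in homozygotes (-1.65, edgeR adjusted p = 0.0233). Dok2 was also the 1 of the 19 called between the controls, higher in G184 than in G144 (1.275, adjusted p = 0.0461).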

How the data were processed

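The authors aligned reads of ribosome-depleted, stranded total RNA to GRCm38/mm10 with STAR, after bcl2fastq, and deposited raw counts per gene for each lane (for both tools the version is not given in the sources). Here the reverse-strand counts of 64 lane files (4 lanes in 2 runs) were summed per tumor. The deposited sums per mouse served to check the columns and to name genes, and GENCODE M21 named the others and gave places, lengths and transcripts. filterByExpr of edgeR 4.0.16 (R 4.3.3) kept 22187 of 55385 genes. After TMM scaling, the quasi-likelihood model was fitted to all 8 tumors with 1 coefficient per mouse, with Benjamini-Hochberg adjustment over all genes tested and a threshold of 0.05. The fit had 4 residual degrees of freedom and was tested on simulated data. Reads in no gene on that strand, unmapped, ambiguous or mapping to several places (47.7% to 52.0%) were left out. Alternatives included DESeq2 1.42.0. The members and lists were chosen with earlier results of these data known. All members are named, and from each of 6 pathway lists up to 4 genes past the threshold with the largest change; 9 marker lists are given by counts and sums. The RPKM of Lyn and Frk and the CPM of Fgr were picked after their values were seen. A few single genes are not reported.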

Additional observations from a re-analysis of the deposited data

Results flagged for a closer look

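Changes in heterozygotes and homozygotes that differed from each other by the quasi-likelihood test of edgeR are listed here as the log2 difference, homozygous minus heterozygous. G144 and G174 were the younger mice, so dose and age cannot be told apart in the listed genes other than Abi1. Abi1 is the floxed gene itself, and its fall with Cre was set by the design. Among all genes tested, 25.1% passed the same test. Among the 10 kinases and adaptors Crk alone did so, with a difference of 0.50 (adjusted p = 0.0293).

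Of the other Src family kinases and relatives 4 of 7 passed, with -6.34 for Blk, -2.96 for Fgr, -1.85 for Lck and -1.77 for Lyn. Blk was near the floor, at 0.03 to 0.62 CPM in all tumors but tumor 6 of G164, which had 3.16 CPM. Of the regulators 3 of 11 passed, with -1.73 for Pag1, -0.62 for Ptpn18 and -0.55 for Ptpn6. Of the paralogs of the adaptors and of Ptk2 4 of 7 passed, with -3.15 for Shc3, -3.09 for Cass4, -1.97 for Ptk2b and -1.60 for Nedd9. In the Ras and Rac branch 3 of 15 passed, with -2.19 for Gab2, -0.85 for Sos2 and 0.63 for Grb2. Of the partners of middle T antigen 4 of 17 passed, with -1.35 for Pik3r1, 1.07 for Pik3r2, 1.10 for Ywhae and 0.65 for Ppp2ca. Of the partners of Abl kinases 6 of 19 passed, lower for Abi1 (-3.05), Dok2 (-2.54) and Abi3 (-1.54) and higher for Pstpip1 (0.99), Nck1 (0.77) and Abi2 (0.53). All values are from edgeR, with adjusted p = 0.000889 for Abi1 to 0.0479 for Abi2. Blk, Pag1, Ptpn6, Ppp2ca, Abi3, Pstpip1, Nck1 and Abi2 are named outside the rule, after their values were seen.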

How the results depend on the processing

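There were 2 tumors of 1 mouse per genotype. No paired analysis was possible because each genotype was a separate mouse. Of 470 tested values set against the reported ones, 426 kept their direction and side of the threshold, 19 lost a call, 6 gained one and 19 changed sign, none of the last in a called value. Unscaled sums per mouse gave 20 values with no test, of which 16 kept their sign and 4 changed it.

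Left out in turn, the 8 tumors gave 16 to 1087 genes called in heterozygotes (reported 890), 532 to 2442 in homozygotes (2917), 2079 to 4817 for the difference (5579), 205 to 3164 between controls (2787) and 10 to 26 for Cre (20). Of the 10 genes they gave 0 in homozygotes, where Fyn was called, and 0 to 1 for the difference. Where a left-out tumor left a mouse with 1, that tumor was assumed to vary like the others. Homozygotes also gave 0 of the 10 with library size only, with the second run alone and with only the mice compared. The difference gave 2 (Crk and Fyn) with unstranded counts, the first run alone and DESeq2, and the controls 1 with library size only and 2 with DESeq2. For the difference, Fyn then had an adjusted p of 0.0316 by DESeq2, 0.0429 to 0.0486 by edgeR with those counts, 0.0458 with no filter and 0.0461 without tumor 6 of G184, and Abl1 had -0.45 (edgeR adjusted p = 0.0393) with library size only.

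No filter gave 2614, 4575 and 413 genes in heterozygotes, homozygotes and for Cre. DESeq2 gave 2650, 4411, 4344 and 286 in heterozygotes, homozygotes, controls and for Cre, and a fit of only the mice compared 1394, 980 and 1534 in the first 3. Library size only raised the share of calls that were higher from 67.9% to 83.6% in heterozygotes and lowered it from 47.9% to 36.9% for the difference. The cause was not tested.

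Signs changed only in values near 0. Src in heterozygotes was -0.0016 with DESeq2 size factors, -0.0020 with no filter, -0.013 unstranded, -0.0028 with DESeq2, -0.072 as unscaled sums and -0.069 to 0.056 with tumors left out. As unscaled sums, Abl2 was -0.020 and Crkl -0.040 in heterozygotes, and Yes1 -0.0090 in homozygotes. With tumors left out, Fyn ran from -0.30 to 0.072 in heterozygotes. Homozygous changes ran from -0.15 to 0.063 (Src), -0.055 to 0.17 (Yes1) and -0.089 to 0.047 (Bcar1), and differences from -0.14 to 0.078 (Src) and -0.21 to 0.033 (Ptk2). Shc1 had a difference of -0.039 with library size only.

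With the longest transcript as length, RPKM was 18.9 (Abl1), 9.53 (Abl2), 27.8 (Src), 20.3 (Yes1), 8.70 (Fyn), 26.8 (Ptk2), 10.5 (Bcar1), 54.1 (Crk) and 27.2 (Shc1), and shares were 66.4% (Abl1), 33.6% (Abl2), 49.0% (Src) and 35.7% (Yes1).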
